A study of Homo sapiens with 4 samples.

Results

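The 10 genes VIM, CDH1, CDH2, EPCAM, ZEB1, ZEB2, SNAI1, SNAI2, TWIST1 and TWIST2 were taken by gene name from a table of 58735 genes, and each matched 1 row. They encode vimentin, a pair of classical cadherins, an epithelial adhesion molecule and 6 transcription factors known for their part in the epithelial-mesenchymal transition (EMT). RNA sequencing covered 4 libraries of the HFL1 line, which was derived from human fetal lung and is used as a fibroblast model. Of these, 2 are labelled KO, in which calumenin was the target, and 2 are labelled WT. The sources used here do not give how the KO cells were made, whether they were a clone or a pool, or any treatment or passage number. The study's title links calumenin to the upkeep of vimentin protein, and the comparison of KO with WT asks how the RNA of these genes stood when calumenin RNA was low.

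Vimentin is the main intermediate filament protein of mesenchymal cells. E-cadherin (CDH1) and EPCAM hold epithelial cells together, whereas N-cadherin (CDH2) is the classical cadherin of mesenchymal and neural cells. In EMT, factors of the SNAI, ZEB and TWIST families are known to repress CDH1, and cells then make more vimentin and N-cadherin. SNAI and ZEB proteins are zinc finger proteins that bind E-box sequences such as CACCTG, and TWIST proteins are basic helix-loop-helix proteins that bind E-boxes as dimers.

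CALU, which encodes calumenin, stood at 6.59 and 5.95 FPKM in the KO libraries, against 87.7 and 81.8 FPKM in the WT libraries, 13.5-fold lower in KO (log2 change -3.56, SE 0.14, limma adjusted p = 0.00154). The targeted gene was thus low in both libraries labelled KO. FPKM is a fragment count scaled by gene length and by a measure of library depth, so levels of different genes are comparable per length. Reads recovered from these values numbered 17699349 and 16622382 in KO and 17715774 and 16173899 in WT, with 9.34% and 9.71% of them mitochondrial in KO, and 9.66% and 12.7% in WT. Of 12 fibroblast markers, 9 stayed below 1 FPKM in every library. COL1A2 and POSTN were at 0 reads in all 4 libraries, and no library exceeded 0.00475 FPKM for DCN, 0.00871 FPKM for FAP or 0.111 FPKM for PDGFRB. COL1A1, a collagen of fibroblasts, rose and stood at 3.04 and 3.16 FPKM in KO, against 0.234 and 0.28 FPKM in WT. It was tested through the KO libraries alone. FBLN1, fibulin 1, was the highest of the 12 and rose, at 9.74 and 10.4 FPKM in KO, against 5.62 and 6.93 FPKM in WT (limma adjusted p = 0.0381). THY1 stood at 1.38 and 1.79 FPKM in KO and 1.05 FPKM in both WT libraries. The summed level of the 12 was 14.5 and 15.9 FPKM in KO and 7.87 and 9.49 FPKM in WT, most of it from FBLN1. Below 1 FPKM, COL3A1 was higher in both KO libraries, whereas LUM, PDGFRA and PDGFRB were lower. LUM stood at 0.0569 and 0.243 FPKM in KO, against 0.637 and 0.811 FPKM in WT. PDGFRA stood at 0.0293 and 0.0314 FPKM in KO, against 0.186 and 0.138 FPKM in WT. The markers thus did not move together. The 12 epithelial markers, CDH1 and EPCAM among them, summed to 1535 and 1765 FPKM in KO and to 712 and 821 FPKM in WT, most of it from the keratins KRT8 and KRT18. Of those 12, 4 stayed below 1 FPKM in every library, namely KRT5, CLDN7, ESRP1 and RAB25, while CDH1, KRT19, KRT8 and KRT18 rose and CLDN4 and KRT15, tested through WT alone, fell. All 7 endothelial markers were below 1 FPKM in every library. The other marker lists had 1 or more called genes, with CD14 (leukocyte), ACTA2 (mural) and CALB2 (mesothelial) lower in KO and UPK3B (mesothelial) higher. Most of the fibroblast markers thus went against the labelled cell type, and the levels of VIM, CDH1 and EPCAM below are those of cells whose fibroblast identity these markers leave in doubt. The part of these differences in the results below was not tested. In bulk RNA, a change in the share of cells that express a gene and a change in RNA per cell cannot be told apart. The labels do not say whether replicate libraries come from different cultures, and a p-value here reflects the spread among 4 libraries, part of which may be technical.

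The members of a family could share reads where their sequences are nearly alike, so the most alike coding stretches of the TWIST pair and of the cadherin pair are shown first. TWIST1 and TWIST2 matched at 112 of 120 bases in a stretch of their basic helix-loop-helix coding region. The capitals mark the 8 bases at which they differ, and the longest identical run anywhere in both coding sequences was 23 bases.

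TWIST1, chromosome 7, coding bases 335 to 454: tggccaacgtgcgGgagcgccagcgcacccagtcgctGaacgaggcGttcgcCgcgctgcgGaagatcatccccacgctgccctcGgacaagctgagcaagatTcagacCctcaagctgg
TWIST2, chromosome 2, coding bases 209 to 328: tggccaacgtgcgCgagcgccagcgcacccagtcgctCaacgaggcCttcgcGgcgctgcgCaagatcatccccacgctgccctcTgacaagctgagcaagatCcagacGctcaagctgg

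CDH1 and CDH2 matched at 91 of 120 bases in the stretch that encodes the beta-catenin-binding part of the cytoplasmic tail, again with the 29 differing bases in capitals. Their longest identical run was 18 bases.

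CDH1, chromosome 16, coding bases 2494 to 2613: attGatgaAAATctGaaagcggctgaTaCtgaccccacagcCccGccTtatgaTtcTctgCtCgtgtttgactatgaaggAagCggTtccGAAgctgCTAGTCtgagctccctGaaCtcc
CDH2, chromosome 18, coding bases 2506 to 2625: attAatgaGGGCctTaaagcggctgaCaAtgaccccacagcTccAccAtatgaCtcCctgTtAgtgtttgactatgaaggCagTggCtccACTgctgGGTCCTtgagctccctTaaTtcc

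These 4 sequences are GENCODE release 29 coding sequences, in mRNA sense, counted from the first base of the start codon. No word of 50 bases from TWIST2, SNAI1 or SNAI2 transcripts occurred in transcripts of any other gene. The shares were 2.47% for TWIST1, 1.65% for EPCAM, 1.84% for CDH2, 2.84% for ZEB1, 4.14% for CDH1 and 4.41% for ZEB2. For VIM the share was 20.7%. The genes sharing most of its words included VIM-AS1 and AL133415.1, which overlap it on the opposite strand, at 0.245 to 0.717 FPKM and at 0 reads across libraries. ZEB1-AS1, which overlaps ZEB1 on the opposite strand over 366 exon bases, had 114 and 86 reads in KO and 56 and 47 in WT. Whether counting used strand is not given, so reads in these overlaps cannot be assigned.

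Of the 10 genes, CDH1, CDH2 and SNAI1 rose in KO and TWIST2 fell. VIM, EPCAM, ZEB1 and TWIST1 did not pass the test, and ZEB2 and SNAI2 were too low to enter it. A gene was tested when at least 2 libraries reached 1 FPKM, and called at an adjusted p under 0.05 in limma, fitted to log2(FPKM + 1) over 14100 genes. Log2 changes below are KO minus WT on that scale, which understates the change of genes at low levels. A fold divides one group's mean FPKM by the other's. Among all genes tested 23.3% were called, 12.1% higher and 11.1% lower in KO. Both KO libraries lay above both WT libraries for VIM, CDH1, CDH2, EPCAM, SNAI1 and ZEB2, and below them for TWIST1, TWIST2 and SNAI2. Only ZEB1 had overlapping groups among the 10. Among all genes tested, 34.4% had both KO libraries above both WT libraries and 31.3% had them below, so a lack of overlap was common.

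**Figure D1:**
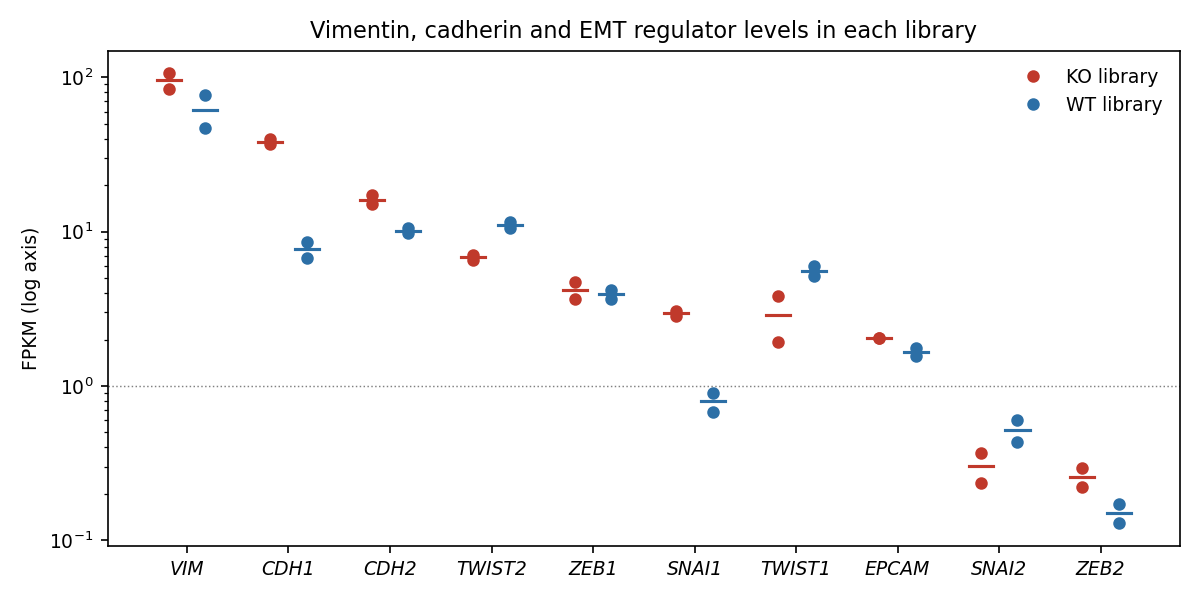
Levels of the 10 genes in FPKM on a log axis, ordered by mean in KO. Points are the 2 KO (red) and 2 WT (blue) libraries, short lines are group means, and the dotted line marks 1 FPKM. CDH1 stood at 39.9 and 36.9 FPKM in KO and at 6.79 and 8.55 FPKM in WT, while the ZEB1 points of both groups overlap.

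VIM lies on the plus strand of chromosome 10 from 17228259 to 17237593 (GRCh38, as are all positions). It was the highest of the 10 genes in every library, at 106 and 84.6 FPKM in KO, against 76.5 and 46.8 FPKM in WT. The groups did not overlap, but the lower KO library was only 1.11 times the higher WT library. The mean was 95.5 ± 15.4 FPKM in KO and 61.6 ± 21.0 FPKM in WT (SD, n = 2 each), 1.55-fold higher in KO. The log2 change was 0.66 (SE 0.27, limma adjusted p = 0.136), which did not pass. Counting error was small beside this spread, since each library held 3956 to 9613 VIM reads and the coefficient of variation from counting was at most 1.59%. Without WT replicate 2 the log2 change was 0.31 (limma adjusted p = 0.549), and without WT replicate 1 it was 1.004 (limma adjusted p = 0.0894). The length behind the VIM values, 5158 bases over all annotated exons, was 2.42 times that of its longest coding transcript, so its FPKM would be larger per base of that transcript.

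CDH1 showed the largest log2 change of the 8 tested genes. The gene, on the plus strand of chromosome 16 from 68737225 to 68835548, stood at 39.9 and 36.9 FPKM in KO, against 6.79 and 8.55 FPKM in WT. The lower KO library was 4.32 times the higher WT library. The mean was 38.4 ± 2.07 FPKM in KO and 7.67 ± 1.24 FPKM in WT (SD, n = 2 each). CDH1 rose 5.01-fold, or 2.19 on the log2 scale (SE 0.16, limma adjusted p = 0.00312). CDH1 kept its call without any 1 library (limma adjusted p = 0.00569 to 0.0139).

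CDH2, on the minus strand of chromosome 18 from 27950966 to 28177446, rose as well, by less. Its level was 17.2 and 15.1 FPKM in KO, against 10.5 and 9.75 FPKM in WT. All KO values were above all WT values, and the fold was 1.60 (log2 change 0.62, SE 0.14, limma adjusted p = 0.0304). The call was lost without WT replicate 1 (limma adjusted p = 0.163), without WT replicate 2 (limma adjusted p = 0.206) and without KO replicate 1 (limma adjusted p = 0.0725).

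The order of the cadherins differed between the groups. CDH1 RNA was 2.31 and 2.45 times CDH2 RNA in the KO libraries, against 0.647 and 0.877 times in the WT libraries. The log2 ratio averaged 1.25 ± 0.06 in KO and -0.41 ± 0.31 in WT (SD, n = 2 each), a difference of 1.66. CDH1 stood at 0.375 and 0.437 times VIM in KO, against 0.0888 and 0.183 times in WT, a difference of 1.67 on the log2 scale. These ratios use lengths over all annotated exons. Those lengths were 2.42 times the longest coding transcript for VIM, 1.26 times for CDH1 and 1.14 times for CDH2. Per base of that transcript the ratios would differ, and their log2 differences between KO and WT would not. An exact two-sided permutation test gave p = 0.333 for both ratios, the smallest that 2 libraries against 2 allow.

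EPCAM, on the plus strand of chromosome 2 from 47345158 to 47387601, was low and did not follow the size of the CDH1 change. It stood at 2.04 FPKM in both KO libraries, against 1.76 and 1.57 FPKM in WT. These levels rest on 65 to 90 reads per library, and the exact 95% Poisson intervals of all 4 libraries overlap, at 1.64 to 2.51 and 1.62 to 2.52 FPKM in KO and 1.40 to 2.19 and 1.21 to 2.01 FPKM in WT. Such intervals cover counting error only. The log2 change was 0.19 (SE 0.15, limma adjusted p = 0.391).

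**Figure D2:**
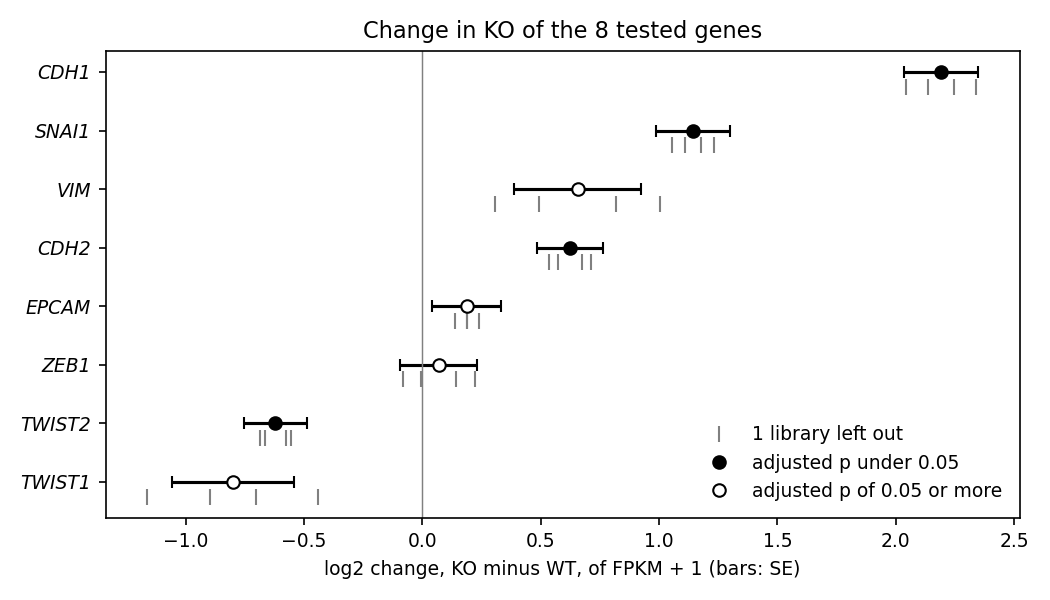
Log2 change of FPKM + 1, KO minus WT, of the 8 tested genes with its SE (bars). Filled points passed the limma test, and grey ticks show the change with 1 library left out. CDH1 at 2.19 and SNAI1 at 1.14 lie highest, and TWIST1 at -0.80 has a wide spread of ticks, between -1.16 and -0.44.

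SNAI1, the gene of the Snail repressor, rose. The gene lies on the plus strand of chromosome 20 from 49982999 to 49988886 and stood at 3.05 and 2.86 FPKM in KO, against 0.682 and 0.905 FPKM in WT. The KO libraries held 90 and 79 reads and the WT libraries 21 and 25, and the counting intervals of the groups did not meet, the lowest KO bound being 2.26 FPKM and the highest WT bound 1.34 FPKM. The fold was 3.72 and the log2 change 1.14 (SE 0.16, limma adjusted p = 0.00896). SNAI1 entered the test through the KO libraries alone, since both WT libraries were below 1 FPKM. It kept its call without any 1 library (limma adjusted p = 0.0263 to 0.0465).

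SNAI2, the Slug gene on chromosome 8, stayed low, at 0.37 and 0.234 FPKM in KO and 0.598 and 0.432 FPKM in WT. Its KO values lay below its WT values, from 22 and 13 reads in KO and 37 and 24 reads in WT. The counting interval of KO replicate 1, 0.232 to 0.561 FPKM, overlapped both WT intervals, 0.421 to 0.824 and 0.277 to 0.642 FPKM. With the filter lowered to 0.1 FPKM in 2 libraries the log2 change was -0.22 (SE 0.13, limma adjusted p = 0.314), which did not pass. The interval of KO replicate 2, 0.125 to 0.4 FPKM, overlapped that of WT replicate 2 and not that of WT replicate 1.

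The TWIST genes were lower in KO, and TWIST2 passed the test. TWIST2, on the plus strand of chromosome 2 from 238848032 to 238910543, was the most abundant of the 6 factors in every library, at 6.60 and 7.08 FPKM in KO, against 11.6 and 10.5 FPKM in WT. The mean was 6.84 ± 0.345 FPKM in KO and 11.1 ± 0.767 FPKM in WT (SD, n = 2 each), 1.62-fold lower in KO (log2 change -0.62, SE 0.13, limma adjusted p = 0.027). The call was lost without WT replicate 1 (limma adjusted p = 0.219), without WT replicate 2 (limma adjusted p = 0.134) and without KO replicate 1 (limma adjusted p = 0.0661).

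TWIST1, on the minus strand of chromosome 7 from 19020991 to 19117672, stood at 1.94 and 3.84 FPKM in KO, against 5.15 and 6.03 FPKM in WT. Both KO values were below both WT values, yet the KO libraries differed from each other by more than counting error, with intervals of 1.51 to 2.45 and 3.21 to 4.57 FPKM. The mean was 1.93-fold lower in KO and did not pass (log2 change -0.80, SE 0.26, limma adjusted p = 0.0766). Without KO replicate 2 the log2 change was -1.16 and passed (limma adjusted p = 0.0222), and without KO replicate 1 it was -0.44 and did not (limma adjusted p = 0.14). KO replicate 1 held 9 reads of AC003986.2, which overlaps TWIST1 on the opposite strand, and the other libraries held 0 to 2.

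ZEB1 was level between the groups. The gene, on the plus strand of chromosome 10 from 31318495 to 31529814, stood at 4.74 and 3.65 FPKM in KO and 4.19 and 3.67 FPKM in WT, and the WT values lay inside the KO range. The log2 change was 0.07 (SE 0.16, limma adjusted p = 0.792), from 517 to 718 reads per library. ZEB2, on the minus strand of chromosome 2, had the lowest FPKM of the 10 in every library, at 0.294 and 0.222 in KO and 0.171 and 0.129 in WT. These values rest on 129 and 91 reads in KO and 78 and 53 in WT, over an annotated exon length of 25058 bases. That length is 2.61 times the longest coding transcript, against 1.40 times for SNAI2, so the order of ZEB2 and SNAI2 may depend on the length used. The counting interval of KO replicate 1, 0.245 to 0.349 FPKM, lay above both WT intervals, and that of KO replicate 2, 0.178 to 0.272 FPKM, overlapped that of WT replicate 1, 0.135 to 0.213 FPKM. With the filter lowered to 0.1 FPKM its log2 change was 0.13 (SE 0.09, limma adjusted p = 0.412).

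As ZEB and SNAI proteins bind CACCTG, the RefSeq promoter windows (250 bases before to 50 after a start, GRCh38.p14) were searched for CACCTG on either strand, that is CACCTG or CAGGTG. Windows were available for VIM, CDH2, ZEB1, ZEB2 and TWIST2, but not for CDH1, EPCAM, SNAI1, SNAI2 or TWIST1, which were not searched. ZEB1 had 4 matches in 2 of its 7 windows. The 2 windows of CDH2 and the 1 window each of VIM, ZEB2 and TWIST2 had none. Of all 35116 windows 20.6% held at least 1 match and 3.49% held 2 or more. These shares are per window, so a gene with more windows has more room for a match. The ZEB1 window with 3 matches, chr10:31318966-31319265 on the plus strand, is shown with the matches in capitals, and none of them overlap.

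ZEB1 promoter window: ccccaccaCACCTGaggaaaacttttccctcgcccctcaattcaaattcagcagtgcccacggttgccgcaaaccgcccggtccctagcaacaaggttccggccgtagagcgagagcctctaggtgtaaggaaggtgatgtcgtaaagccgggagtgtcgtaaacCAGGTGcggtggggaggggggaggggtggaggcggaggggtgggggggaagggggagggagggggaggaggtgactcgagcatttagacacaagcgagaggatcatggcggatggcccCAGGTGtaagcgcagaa

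As levels per length, the 6 factors summed to 17.0 and 17.9 FPKM in KO and to 22.4 and 21.7 FPKM in WT. TWIST1 and TWIST2 made up 50.2% and 61.1% of that sum in KO, against 74.8% and 76.3% in WT. SNAI1 and SNAI2 made up 20.1% and 17.3% in KO, against 5.72% and 6.16% in WT, most of the KO share being SNAI1. ZEB1 and ZEB2 held 29.6% and 21.6% in KO and 19.5% and 17.5% in WT. A share can be larger where the sum is smaller, and ZEB1 itself was level between the groups (limma adjusted p = 0.792). These shares describe RNA levels, and annotated lengths differ from transcript lengths by gene.

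**Figure D3:**
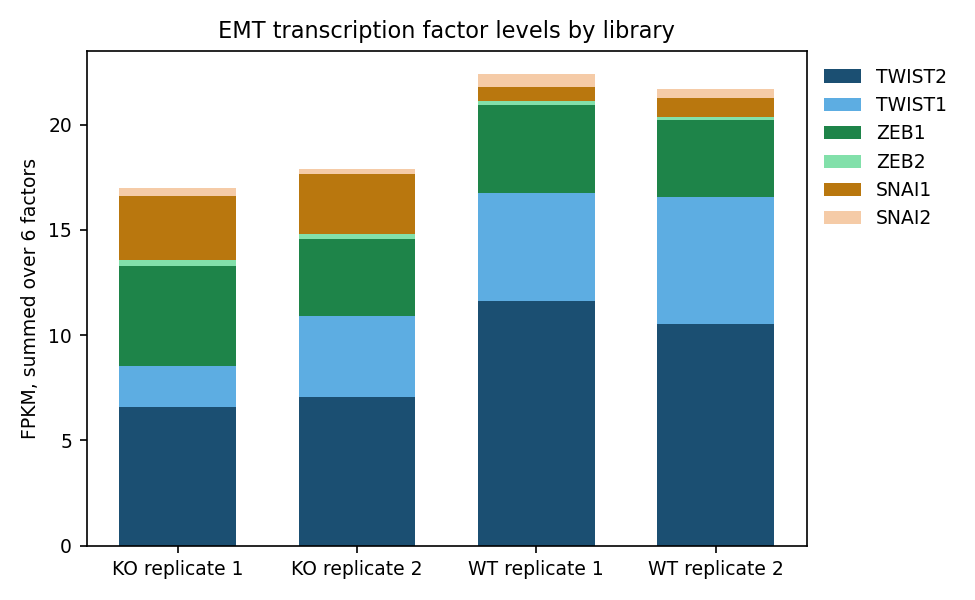
Stacked FPKM of the 6 EMT transcription factors in each library. The sum was 17.0 and 17.9 FPKM in KO and 22.4 and 21.7 FPKM in WT, with a larger SNAI1 block and smaller TWIST blocks in KO.

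Ordered by mean level in KO, the genes ran VIM, CDH1, CDH2, TWIST2, ZEB1, SNAI1, TWIST1, EPCAM, SNAI2 and ZEB2. In that order SNAI1 and TWIST1, TWIST1 and EPCAM, and SNAI2 and ZEB2 had overlapping ranges. In WT the order was VIM, TWIST2, CDH2, CDH1, TWIST1, ZEB1, EPCAM, SNAI1, SNAI2 and ZEB2, with no overlap between the ranges of neighbours. Counting intervals of neighbours did overlap. That of TWIST2 in WT replicate 2 was 9.41 to 11.7 FPKM, and that of CDH2 in WT replicate 1 was 9.85 to 11.2 FPKM. In WT replicate 1 that of SNAI1 was 0.422 to 1.04 FPKM, and that of SNAI2 0.421 to 0.824 FPKM. Among 6996 other protein-coding genes with a mean of at least 5 FPKM, the pattern closest to CDH1 over the 4 libraries was that of CDCA2, RACGAP1 and EID1. Their log2 values, centred on each gene's mean, differed from those of CDH1 by at most 0.09, 0.10 and 0.11 in any library. For VIM the closest were ACTR6, HIGD1A and RAP1GDS1, at 0.16, 0.19 and 0.19. With 4 libraries in 2 groups, such closeness says little about a link between genes, and how many others lay as near was not counted.

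Genes that work beside the 10 were read from lists of related genes, whose counts stand against 12.1% of all genes tested called higher and 11.1% called lower. A gene that reached 1 FPKM in only 1 group entered the test because it was high there, and the called ones are named. Of 15 intermediate filament and linker genes other than VIM and the keratins, 9 were tested, 0 rose and 5 fell, with a median log2 change of -0.91, against 0.03 over all genes tested. The 5 were NEFL, PPL, MACF1, PLEC and INA. The keratins KRT8, KRT18 and KRT19, also intermediate filament genes, rose and are counted among the epithelial genes below. NEFL, a neurofilament subunit, stood at 0.145 and 0.127 FPKM in KO, against 4.61 and 3.10 FPKM in WT (log2 change -2.08, limma adjusted p = 0.00436), and was tested through WT alone. PPL, the linker periplakin, stood at 2.99 and 3.22 FPKM in KO, against 10.6 and 11.5 FPKM in WT, 3.57-fold lower in KO. MACF1, a linker of actin and microtubules, was 2.76-fold lower in KO. Fewer filament and linker genes fell without WT replicate 1 or without WT replicate 2, as did fewer of all genes tested.

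Of 20 other cadherins, 16 stayed below 1 FPKM in every library, and of the 4 tested 2 rose and 1 fell, with a median log2 change of 0.61. CDH24 stood at 6.72 and 8.60 FPKM in KO, against 3.54 and 3.84 FPKM in WT, and CDH16, a kidney-type cadherin, at 1.20 and 1.37 FPKM in KO, against 0.30 and 0.384 FPKM in WT. CDH16 was tested through KO alone. CDH4, retinal cadherin, was 2.89-fold lower, with 3.15 and 2.68 FPKM in KO, against 9.88 and 6.96 FPKM in WT. Of 13 catenins and adherens junction partners 9 were tested, 2 rose and 1 fell, with a median log2 change of 0.50. VCL, vinculin, which links cadherin complexes to actin, rose 1.88-fold to 49.1 ± 4.86 FPKM in KO, against 26.1 ± 1.53 FPKM in WT (SD, n = 2 each). CTNND1, the catenin that stabilizes cadherins at the membrane, rose 1.57-fold, and JUP, plakoglobin, was 1.66-fold lower in KO. Without WT replicate 1 the calls of CDH4, CDH24, CDH16, VCL, CTNND1 and JUP were lost (limma adjusted p = 0.0546 to 0.228). Without WT replicate 2 those of CDH24, CDH16, VCL, CTNND1 and JUP were lost (limma adjusted p = 0.0788 to 0.201), without KO replicate 1 those of CDH16 and CTNND1 (limma adjusted p = 0.0692 and 0.0891) and without KO replicate 2 those of CDH16 and JUP (limma adjusted p = 0.0947 and 0.0616). CTNND1 also lost its call under quantile, upper quartile and total read scaling (limma adjusted p = 0.0872, 0.0533 and 0.0532).

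Of 13 desmosome genes, 8 were tested, 3 rose and 1 fell, with a median log2 change of 0.36. These are 37.5% and 12.5% of the 8. DSP, desmoplakin, stood at 23.4 and 18.2 FPKM in KO, against 12.5 and 11.5 FPKM in WT, and PKP3, a plakophilin, at 14.1 and 15.3 FPKM in KO, against 8.38 and 8.92 FPKM in WT. DSC3, a desmosomal cadherin, was 1.91-fold lower, with 1.31 and 1.18 FPKM in KO, against 2.38 and 2.39 FPKM in WT. Without either WT replicate none of the 4 calls held, PKP2 included (limma adjusted p = 0.116 to 0.292). Without KO replicate 1 those of DSP, DSC3 and PKP2 were lost (limma adjusted p = 0.0645, 0.0747 and 0.127), and without KO replicate 2 those of DSC3 and PKP2 (limma adjusted p = 0.0937 and 0.0662). PKP2 also lost its call under quantile, total read and upper quartile scaling and with one prior for all genes (limma adjusted p = 0.0543, 0.0596, 0.0612 and 0.0535).

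Of 12 epithelial transcription and splicing factors, 5 were tested, 1 rose and 1 fell, with a median log2 change of 0.22. GRHL2 and ELF5 were at 0 reads in all libraries, and the splicing factors ESRP1 and ESRP2 stayed at or below 0.165 FPKM. TP63, a p53 relative, stood at 2.08 and 1.91 FPKM in KO, against 0.669 and 0.72 FPKM in WT. GRHL3, a grainyhead factor, stood at 0.478 and 0.325 FPKM in KO, against 1.67 and 2.12 FPKM in WT. Both called genes of this list were tested through 1 group alone, TP63 through KO and GRHL3 through WT. TP63 lost its call without any 1 library (limma adjusted p = 0.0511 to 0.0967), and GRHL3 without WT replicate 2 (limma adjusted p = 0.0643).

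Of 17 other transcription factors linked to EMT, 12 were tested, 2 rose and 5 fell, with a median log2 change of -0.17. FOXQ1, a forkhead factor, was 3.77-fold lower in KO libraries, with 6.92 and 8.33 FPKM, against 27.9 and 29.6 FPKM in WT. SOX9 was 2.99-fold lower, at 14.0 and 12.3 FPKM in KO, against 38.8 and 39.7 FPKM in WT. HMGA2, a chromatin architectural protein, was 2.70-fold lower in KO, and lost its call without WT replicate 1 or without either KO replicate (limma adjusted p = 0.123, 0.0699 and 0.0691). PRRX2 and FOXC1 were the other members that fell, and TCF4 and YBX1 those that rose. TCF4 was tested through KO alone and PRRX2 through WT alone. TCF4 and YBX1 lost their calls without any 1 library (limma adjusted p = 0.0845 to 0.181 for TCF4 and 0.0652 to 0.202 for YBX1). Of 14 corepressors and partners of SNAI and ZEB proteins, all were tested, 1 rose and 0 fell, with a median log2 change of -0.06. AJUBA, a LIM protein, stood at 30.1 FPKM in both KO libraries, against 39.7 and 43.8 FPKM in WT (limma adjusted p = 0.0643). AJUBA passed with quantile normalization, voom on recovered reads and a replicate block (limma adjusted p = 0.0442, 0.0267 and 0.0212), and under no other alternative. HDAC1 stood at 23.6 and 25.5 FPKM in KO, against 23.8 and 22.9 FPKM in WT (limma adjusted p = 0.751). The member that rose was the deacetylase HDAC2, named after its values were seen, 1.65-fold (limma adjusted p = 0.0246), a call lost without either WT replicate or without KO replicate 1 (limma adjusted p = 0.197, 0.149 and 0.0639).

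Of 25 epithelial junction, polarity and keratin genes, 17 were tested, 4 rose and 2 fell, with a median log2 change of 0.09. These are 23.5% and 11.8% of the 17. The 4 were KRT19, LLGL2, KRT8 and KRT18. KRT19, a simple epithelial keratin, stood at 45.6 and 53.0 FPKM in KO, against 17.3 and 16.3 FPKM in WT. CLDN4, a tight junction claudin, stood at 0.947 and 0.973 FPKM in KO, against 4.57 and 5.27 FPKM in WT, and SPINT1, a protease inhibitor of epithelia, at 0.258 and 0.241 FPKM in KO, against 2.38 and 2.50 FPKM in WT. CLDN4 and SPINT1, which were the members that fell, were tested through WT alone. KRT8 lost its call without either WT replicate or KO replicate 2 (limma adjusted p = 0.141, 0.0603 and 0.0715) and KRT18 without either WT replicate (limma adjusted p = 0.104 and 0.0594). Fewer genes of this list rose without WT replicate 1 or without WT replicate 2, as did fewer of all genes tested.

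Of 25 mesenchymal genes, 23 were tested, 5 rose and 4 fell, with a median log2 change of -0.10. These are 21.7% and 17.4% of the 23. VCAN, the proteoglycan versican, stood at 16.1 and 11.8 FPKM in KO, against 1.80 and 1.501 FPKM in WT, and FN1, fibronectin, at 126 and 111 FPKM in KO, against 34.7 and 28.9 FPKM in WT. Without WT replicate 1 fewer of the list rose and fewer fell, as was so over all genes tested.

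**Figure D4:**
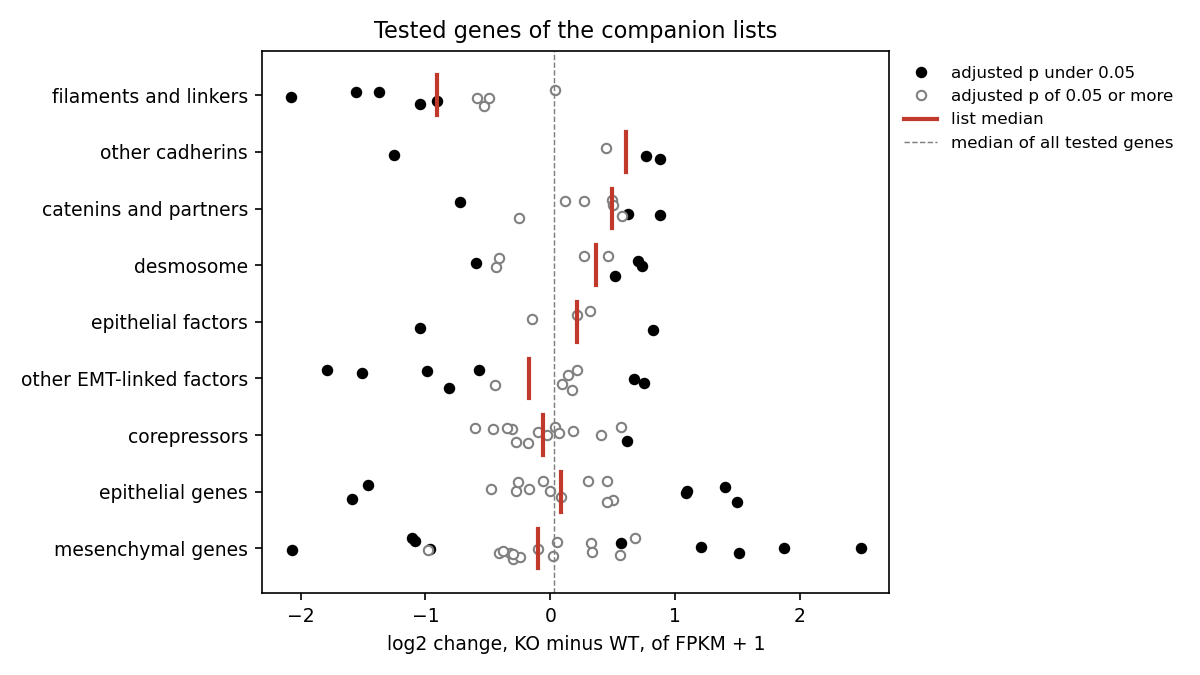
Log2 change of FPKM + 1, KO minus WT, for the tested genes of 9 companion lists. Filled points passed the limma test, red bars are list medians and the dashed line is the median of all genes tested, 0.03. The filament and linker list has its median at -0.91.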

How the data were processed

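RNA from 4 libraries (2 KO, 2 WT) was sequenced as paired-end reads on an Illumina NovaSeq 6000 and aligned with HISAT2 2.0.5, per the labels' protocols. The submitters' processing notes name the builds hg38 and mm10. All 58735 gene identifiers and coordinates equalled those of GENCODE release 29 on GRCh38. The values used were the FPKM the authors deposited. The sources used here name no counting tool, strand setting or scaling between libraries. FPKM times gene length was a whole multiple of 1 step per library for 100% of values (tolerance 0.01), which gave the reads. The divisor that these steps imply was 0.99 and 0.986 times the recovered reads in KO, and 1.03 and 1.01 times in WT. Median-of-ratios size factors of these FPKM came to 1.0046 in every library, so by that measure the deposited values were already level between libraries.

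Values were analysed as log2(FPKM + 1), with a pseudocount of 1, in R 4.3.3 with limma 3.58.1 (intensity-dependent prior, prior df 3.54, residual df 2, no replicate block), on genes with at least 1 FPKM in at least 2 libraries. Adjusted p-values are Benjamini-Hochberg over 14100 genes. Intervals are exact Poisson at 95%. The 10 genes, the 9 companion lists and the marker lists were chosen with earlier results of these data known. Named genes were the 10, CALU, up to 3 called genes per list by size of change (the 2 most abundant where fewer than 2 were called), markers, and the 3 genes closest to VIM and to CDH1. Other list members are named after their values were seen. One gene that this rule names is not reported here. In all, 14 alternatives were tried.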

Additional observations from a re-analysis of the deposited data

How the results depend on the processing

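The counts over all genes, 1711 higher and 1572 lower in KO, became 183 and 193 with no filter on low values. Leaving out 1 library gave 505 to 1321 higher and 537 to 1260 lower, the lowest without WT replicate 1. The other settings, apart from the replicate block, stayed within 1.5 times. The labels give KO and WT the same replicate numbers but no shared source. Replicate 1 minus 2 correlated at 0.411 between KO and WT over genes. With the replicate number as a block 2968 genes were higher and 2577 lower, and VIM (limma adjusted p = 0.0112) and TWIST1 (limma adjusted p = 0.0102) passed, the other tested members keeping their side of the threshold. CDH1 passed under all 14 alternatives (limma adjusted p = 1.62e-05 to 0.0472). With no filter, SNAI1 (limma adjusted p = 0.06), CDH2 (limma adjusted p = 0.0802) and TWIST2 (limma adjusted p = 0.0746) lost their calls, where 32306 genes were tested. TWIST1 passed with voom on recovered reads (limma adjusted p = 0.0228), and VIM did not pass outside the block. ZEB1 changed sign without WT replicate 2 (-0.0061) and without KO replicate 1 (-0.083), and leaving out 1 library gave it log2 changes of -0.083 to 0.22. The log2 difference in the CDH1 to CDH2 ratio ranged from 1.44 to 1.88 and in the CDH1 to VIM ratio from 1.15 to 2.19. Scaling moved the median log2 change of all genes by at most -0.0445 (voom). The leave-one-out settings above show only whether a result depends on 1 library, and causes were not tested. Depth limits SNAI2, SNAI1, EPCAM, ZEB2 and, in KO, TWIST1, each under 130 reads per library. TWIST1 held 69 and 128 reads in KO and 191 and 201 in WT.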
